A study of Mus musculus with 14 samples.

Results

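OCP3 and OCP2 are cell populations that differ by the surface protein Thy1; both were sorted from limbs of C57BL/6 embryos taken at day 16.5 of mouse gestation. Both were positive for the tetraspanin CD9 and negative for CD73. OCP3, CD73-Thy1+, was hybridised to 4 arrays and OCP2, CD73-Thy1-, to 3. These 7 arrays were chosen by their titles from 14 in the series. The remaining arrays hold the CD73-positive counterparts, OCP1 (CD73+Thy1-, 3 arrays) and OCP4 (CD73+Thy1+, 4 arrays), which are used here to share the estimate of the spread and to set the same Thy1 comparison beside this one. The study names all 4 groups subpopulations of osteochondroprogenitors, cells that can form cartilage and bone. Whole limbs were digested with collagenase and dispase and depleted of red cells before antibody staining and flow sorting. The labels do not say whether the arrays of a group came from separate litters or sorts, so each p-value speaks only for the variation among these arrays, part or all of which could be technical.

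Thy1 is a glycosylphosphatidylinositol-anchored glycoprotein of the immunoglobulin family that marks fibroblasts, perivascular cells and many mesenchymal progenitors. CD73, encoded by Nt5e, is the ecto-enzyme that turns extracellular AMP into adenosine. In a limb of this age, cartilage templates are secreting a matrix rich in type II collagen and aggrecan, a bone collar is forming in the perichondrium around them, and vessels with their pericytes are invading the centres. Values are log2 of normalised probe set intensity from Affymetrix Mouse Gene 1.0 ST arrays. A difference of 1 is a 2-fold difference in intensity, and levels of different genes are not set against each other. In bulk samples, fewer cells of a type and less RNA per cell cannot be told apart.

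The sort genes were read first. Thy1 read 9.87, 9.74 and 9.19 on the OCP2 arrays and 12.44, 12.70, 12.68 and 12.60 on the OCP3 arrays. The groups were far apart, with an 8.02-fold higher mean in OCP3 (log2 difference 3.00, SE 0.13, limma adjusted p = 1.67e-09). Nt5e read 9.35, 9.14 and 9.42 in OCP2 and 9.88, 8.91, 9.72 and 9.31 in OCP3, and these ranges overlapped (difference 0.15, adjusted p = 0.646). In both CD73-positive groups it was higher, between 12.17 and 13.37, as the labels state. Cd9 read 11.08, 10.99 and 11.15 in OCP2 and 11.03, 10.85, 11.03 and 11.01 in OCP3, again overlapping (difference -0.09, adjusted p = 0.549). The Thy1 and CD73 labels therefore had their transcripts at the matching level. The series holds no CD9-negative group, so the CD9 label could not be checked in this way.

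**Figure D1:**
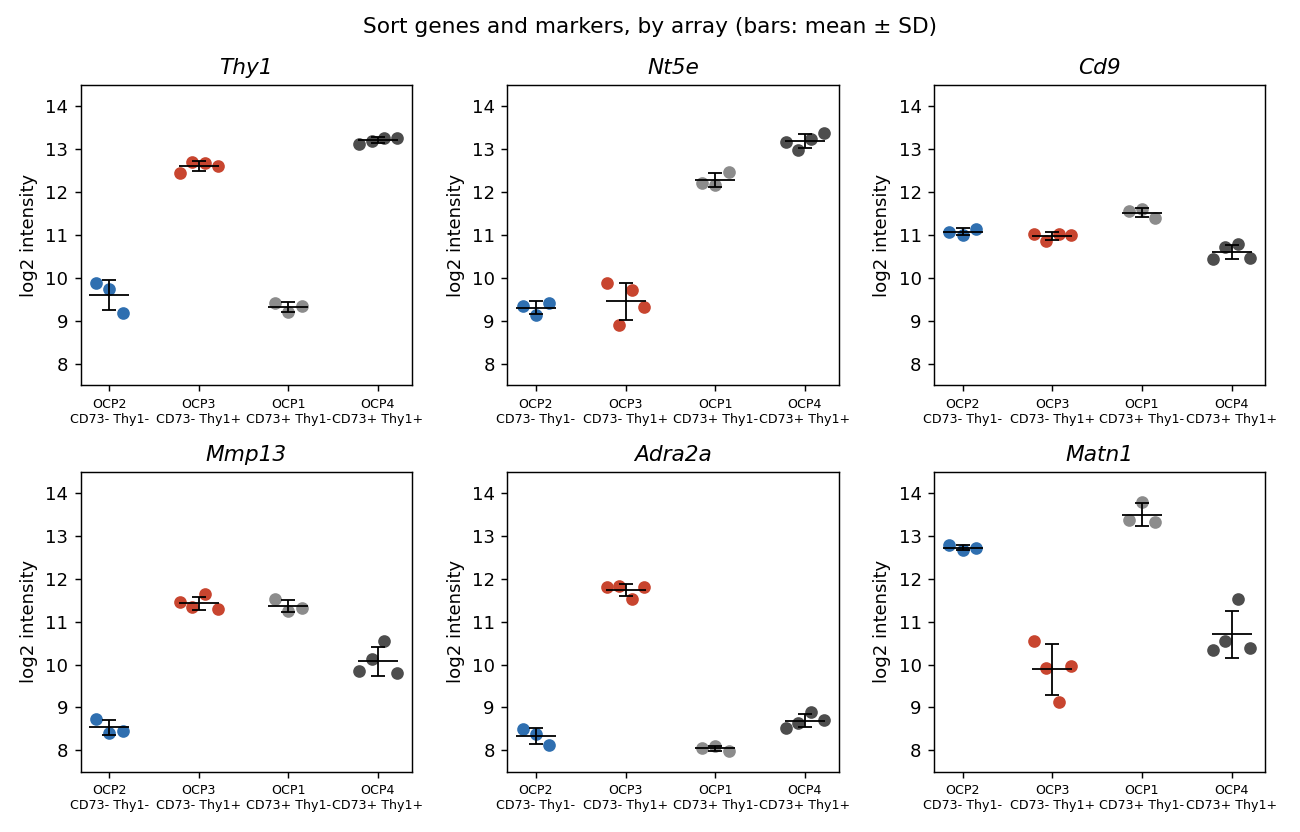
Log2 intensity of the 3 sort genes and of Mmp13, Adra2a and Matn1 in every array (dots) with the group mean and SD (black), by population. Thy1 separates both Thy1+ groups from both Thy1- groups, Adra2a stands high in OCP3, and Matn1 is low in OCP3 and OCP4.

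Across 21734 genes, 3502 differed between OCP3 and OCP2 at an adjusted p under 0.05, or 16.1% of those tested. Of these, 1442 were higher in OCP3 (6.63%) and 2060 were lower (9.48%). The split depends on scaling: with each array centred on its median, 1695 were higher and 1534 lower. Of the called genes, 259 differed by at least 2-fold (1.19% of all genes tested), 165 of them higher and 94 lower in OCP3. At least 4-fold differences were found for 30 higher and 10 lower genes. The arrays of OCP3 and OCP2 did not overlap for 5188 genes, of which 3346 were called. Separation of the 7 arrays is therefore common and is not by itself a call. The median difference over all genes was -0.029, and the 5th and 95th percentiles were -0.34 and 0.31, against which the lists below can be read. All these lists were drawn up with earlier results of these arrays known, so their counts are descriptions. The shares of all genes called, 6.63% higher and 9.48% lower, stand beside each count. Arrays of a group correlated at 0.9955 or more, and OCP2 arrays correlated with OCP3 arrays at 0.9893 to 0.9923.

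**Figure D2:**
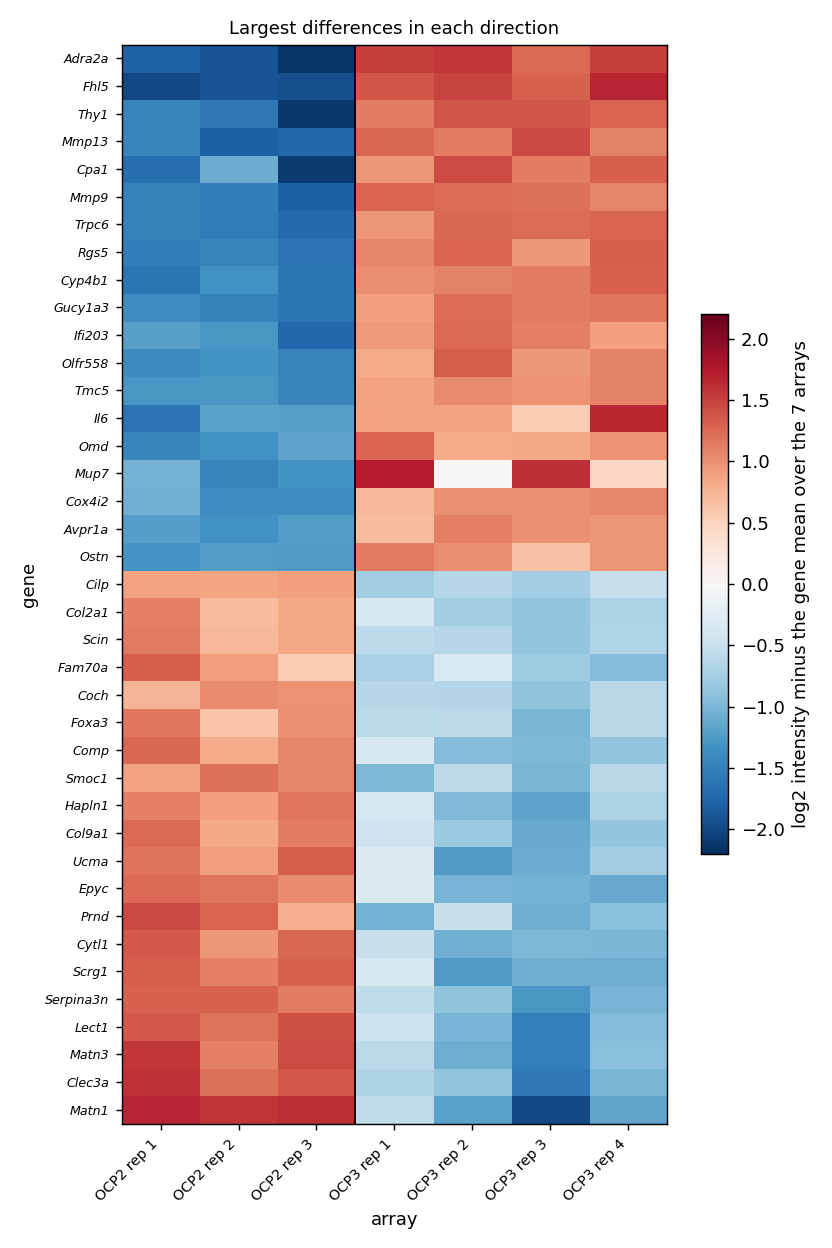
Genes among the 20 with the largest higher (19 shown) and the 20 with the largest lower difference in OCP3 among called genes with non-overlapping arrays (rows), as log2 intensity minus each gene's mean over the 7 arrays (colour). Genes of cartilage matrix fill most of the lower block, and Mup7 varies most among the OCP3 arrays.

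Cartilage genes made up most of the largest losses. Of 25 cartilage matrix genes, 22 were lower in OCP3 and 1 was higher, with a median difference of -1.55. Matn1, a matrilin that forms filaments in cartilage matrix, read 12.78, 12.67 and 12.73 in OCP2 and 10.55, 9.93, 9.12 and 9.96 in OCP3. Every OCP3 array was below every OCP2 array, and the OCP3 arrays spread over more than 1 log2 unit (difference -2.84, SE 0.30, 7.16-fold, adjusted p = 1.22e-05). Matn3, a second matrilin, read 11.99, 11.53 and 11.86 in OCP2 and 9.83, 9.35, 8.93 and 9.51 in OCP3, a difference of -2.38. Clec3a, a cartilage C-type lectin, was lower by 5.33-fold and Lect1, the chondromodulin gene (current symbol Cnmd) whose product keeps vessels out of cartilage, by 4.91-fold.

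The fibrillar collagen of cartilage followed the same order. Col2a1 read 13.02, 12.61 and 12.76 in OCP2 and 11.55, 11.14, 11.07 and 11.24 in OCP3, a difference of -1.55 (SE 0.14, adjusted p = 2.7e-06). Col9a1, a collagen that decorates type II fibrils, differed by -1.88, and Hapln1, the link protein that fixes aggrecan to hyaluronan, by -1.87. Acan, the aggrecan core protein, differed less, by -0.89, with 12.94, 12.61 and 12.69 in OCP2 and 12.06, 11.81, 11.75 and 11.79 in OCP3. Comp, which links collagens in cartilage and tendon, differed by -1.84, and Ucma, a secreted protein of the upper growth plate, by -2.0. Epyc, a small leucine-rich proteoglycan, differed by -2.03 on its bright probe set, while a dimmer set showed 0.05. Cilp2 was the exception, higher by 0.53 (adjusted p = 4.07e-05), whereas its relative Cilp differed by -1.55. Prelp and Chad did not pass the test, at -0.09 and 0.02.

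Regulators of the chondrocyte state were lower too. In that list 8 of 12 were lower in OCP3 and 0 higher, with a median of -0.59. Without OCP2 replicate 1, 1 gene was called higher. Sox9, the transcription factor that drives Col2a1 and Acan, read 12.68, 12.22 and 12.52 in OCP2 and 11.35, 11.19, 11.19 and 11.21 in OCP3. The groups did not overlap, and the OCP3 mean was 2.36-fold lower (difference -1.24, SE 0.11, adjusted p = 3.59e-06). Sox6, a partner of Sox9, differed by -0.49 (adjusted p = 0.0056). Sox5, the other partner, read 10.90, 10.25 and 10.58 in OCP2 and 10.19, 10.06, 10.12 and 9.77 in OCP3 and did not pass (difference -0.54, adjusted p = 0.0931). It passed, at 0.035, when OCP4 replicate 3 was left out. Foxa3 differed by -1.62, Nkx3-2 by -0.60 and Fgfr3, the receptor that restrains chondrocyte division, by -0.61.

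Enzymes that make sulphated glycosaminoglycans showed smaller differences, with 9 of 14 lower and 0 higher (median -0.20). Chst11, a chondroitin 4-sulphotransferase, led with -1.39, from 11.19, 10.83 and 11.11 in OCP2 to 9.91, 9.51, 9.59 and 9.6 in OCP3. Papss2, which makes the sulphate donor, differed by -0.70 and Csgalnact1, which starts chondroitin chains, by -0.68. Without OCP2 replicate 1, the count of lower genes in this list was 5.

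Tendon and joint genes were lower as well. Of 10 tendon and ligament genes, 6 were lower and 1 higher (median -0.49), led by the tendon transcription factor Scx at -1.05, from 11.67, 11.38 and 11.67 to 10.69, 10.42, 10.47 and 10.51. Tnmd, a membrane protein of mature tendon, differed by -0.67, Mkx, a homeobox factor of tendon, by -0.63 and Thbs4, a thrombospondin, by -0.76. The higher call was lost on leaving out any OCP2 replicate or OCP3 replicate 1, 2 or 4. Of 12 joint and articular genes, 8 were lower and 0 higher (median -0.34). Prg4, the joint lubricant lubricin, was 2.39-fold lower, and Gdf5, the growth factor of the joint interzone, 1.84-fold lower.

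**Figure D3:**
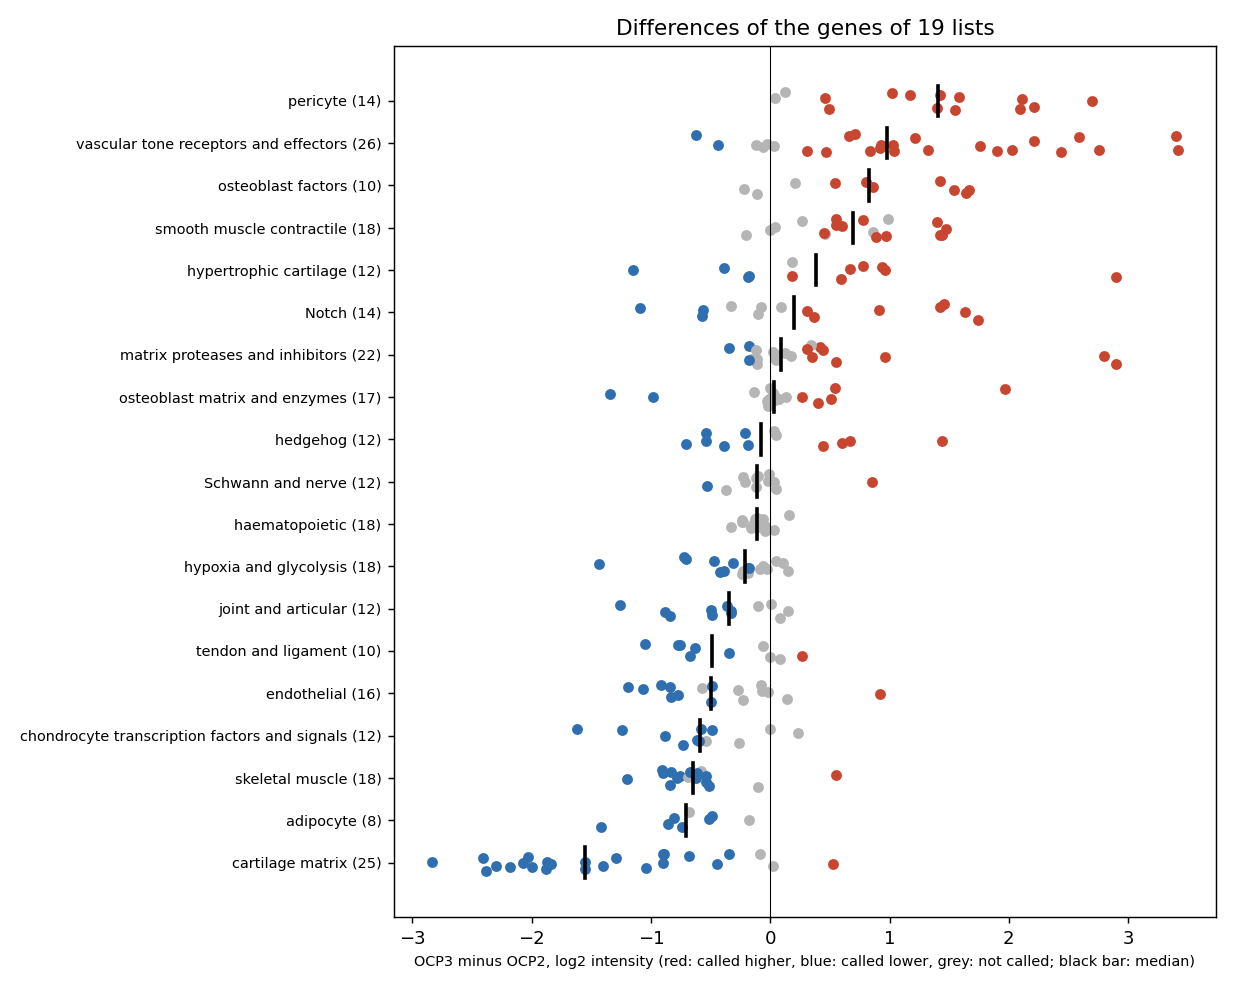
OCP3 minus OCP2 in log2 intensity for each gene of 19 lists (dots; red called higher, blue called lower, grey not called), with the median of each list (black bar) and its number of genes in parentheses. Pericyte, vascular tone and osteoblast factor medians lie highest, at 1.41, 0.98 and 0.83, and the cartilage matrix median lies lowest, at -1.55.

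The hypertrophic cartilage list split instead of moving together. Hypertrophic chondrocytes are the enlarged cells whose matrix is calcified and then replaced by bone. Of 12 genes, 7 were higher in OCP3 and 4 lower, with a median of 0.39. Mmp13, the collagenase that hypertrophic chondrocytes and osteoblasts use to clear collagen, read 8.74, 8.40 and 8.46 in OCP2 and 11.46, 11.34, 11.64 and 11.29 in OCP3. All 4 OCP3 arrays stood more than 2 log2 units above OCP2 (difference 2.90, SE 0.15, 7.46-fold, adjusted p = 1.79e-08). Spp1, the bone and hypertrophic matrix protein osteopontin, read 10.94, 10.50 and 10.66 in OCP2 and 11.47, 11.64, 11.28 and 11.53 in OCP3, a difference of 0.78 (adjusted p = 0.00414). Mef2c, a transcription factor of hypertrophy and muscle, was higher by 0.94.

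Col10a1, the type X collagen that defines hypertrophy, went the other way. It read 9.46, 9.35 and 9.62 in OCP2 and 8.66, 8.17, 7.41 and 9.08 in OCP3. The OCP3 arrays were all lower but spread widely (difference -1.15, SE 0.31, adjusted p = 0.0221). Left out in turn, OCP2 replicate 1 and OCP2 replicate 3 each ended this call, at adjusted p = 0.0624 and 0.075. Ihh, the hedgehog ligand of prehypertrophic cells, differed by -0.39 with overlapping arrays, and its call was lost without OCP2 replicate 1, OCP2 replicate 3 or OCP3 replicate 3. The 4 lower calls in this list became 2 without OCP2 replicate 1 or OCP3 replicate 3, 1 without OCP2 replicate 3, and 0 when only the 7 arrays were fitted.

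Among matrix proteases, 2 stood far above the others. Mmp9, the gelatinase that opens cartilage to vessels, read 9.73, 9.69 and 9.42 in OCP2 and 12.50, 12.44, 12.42 and 12.29 in OCP3, a 6.98-fold difference (2.80, SE 0.13, adjusted p = 3.51e-09). The next member after Mmp13 and Mmp9 was the aggrecanase Adamts4, which differed by 0.96. Timp3, an inhibitor of both enzyme families, was higher by 0.55 and Timp1 by 0.35. In all, 8 of 22 proteases and inhibitors were higher and 3 lower, with a median of 0.09. The lower share is not far above the 9.48% called lower over all genes. The 3 lower calls, Mmp19, Mmp2 and Timp4, were small (-0.35, -0.18 and -0.18) and became 1 on leaving out OCP1 replicate 2, OCP2 replicate 1, OCP2 replicate 2 or OCP3 replicate 1. The general collagenase activator Mmp14 read 13.02 to 13.05 in OCP2 and 13.06 to 13.11 in OCP3 and was not called (adjusted p = 0.561).

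The promoters of the leading members are shown because Mmp13 and Matn1 mark opposite ends of this comparison. Sequences are from RefSeq on GRCm38.p6, 250 bases before and 50 after the annotated start, both on the plus strand. Capitals mark matches to motifs searched on both strands: an AP-1 motif (TGANTCA, bound by Fos and Jun proteins), a RUNX motif (TGTGGT), a SOX motif (ACAAT) and the CArG box of serum response factor. Mmp13 lies at chr9:7272264-7272563 and Matn1 at chr4:130944135-130944434.
Mmp13: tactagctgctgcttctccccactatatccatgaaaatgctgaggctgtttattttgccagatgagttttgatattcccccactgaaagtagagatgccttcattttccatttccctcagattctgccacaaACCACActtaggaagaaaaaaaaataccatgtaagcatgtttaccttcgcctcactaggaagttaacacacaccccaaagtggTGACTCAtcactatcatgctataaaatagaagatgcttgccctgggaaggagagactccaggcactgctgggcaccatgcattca
Matn1: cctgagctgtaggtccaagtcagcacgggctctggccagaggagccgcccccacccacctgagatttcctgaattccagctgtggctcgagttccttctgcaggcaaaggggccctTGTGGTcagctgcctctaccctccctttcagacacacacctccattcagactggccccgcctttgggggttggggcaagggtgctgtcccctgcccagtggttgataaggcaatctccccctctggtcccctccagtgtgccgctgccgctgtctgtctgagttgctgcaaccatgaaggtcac
The Mmp13 window held an AP-1 match beginning at -35 from the start and a RUNX match, on the opposite strand, at -118. In the Matn1 window, a RUNX match began at -134, and these letters included no SOX, AP-1 or CArG match. No matches overlapped. Of all 32851 promoters, 7.8% held the AP-1 motif, 16.8% the RUNX motif, 31.0% the SOX motif and 1.6% a CArG box. Among the 22 promoters of cartilage matrix genes in the table, 6 held the SOX motif (27.3%), and among the 14 of contractile genes, 1 held a CArG box (7.1%). Casq2, Synpo2, Timp3 and Matn3 had none of the 4 motifs in their windows. A match is a run of letters and no evidence of binding.

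Osteoblast transcription factors were higher in OCP3, but most bone matrix genes were not. Of 10 factors, 7 were higher and 0 lower, with a median of 0.83. Runx2, the master factor of the osteoblast lineage, read 10.31, 9.92 and 10.01 in OCP2 and 11.65, 11.66, 11.69 and 11.47 in OCP3. The groups were separated by more than 1 log2 unit (difference 1.54, SE 0.09, 2.90-fold, adjusted p = 4.52e-08). A dimmer Runx2 probe set differed by 0.15, and the mean of both sets by 0.84 (adjusted p = 4.01e-05). Sp7, the osterix factor that acts after Runx2, read 9.0, 8.91 and 8.83 in OCP2 and 10.65, 10.75, 10.30 and 10.64 in OCP3, a 3.18-fold difference. Dlx5 and Dlx6, neighbouring homeobox genes upstream of Sp7, differed by 1.64 and 1.42. Runx3 differed by 0.80 and Msx1 by 0.54, while Msx2, Dlx3 and Atf4 were not called.

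Among 17 matrix genes and enzymes of bone, 5 were higher and 2 lower, and the median was 0.03. The lower count is close to the 9.48% called lower over all genes. Alpl, tissue-nonspecific alkaline phosphatase, which frees phosphate for mineral, read 11.21, 10.85 and 10.84 in OCP2 and 12.95, 12.99, 12.91 and 12.88 in OCP3. That is a 3.91-fold difference with no overlap (1.97, SE 0.12, adjusted p = 4.52e-08). Phex, an endopeptidase that controls phosphate, was lower by 2.53-fold. Col1a1, the main collagen of bone, read 14.43, 14.34 and 14.39 in OCP2 and 14.42, 14.31, 14.42 and 14.39 in OCP3, with overlapping arrays. Ibsp, bone sialoprotein, and Bglap, osteocalcin, also overlapped, with differences of -0.03 and 0.13. The 5 higher genes became 3 on leaving out OCP2 replicate 2, OCP2 replicate 3, OCP3 replicate 1 or OCP3 replicate 2. The 2 lower genes became 1 on leaving out OCP1 replicate 1, OCP1 replicate 3, any OCP2 replicate, OCP3 replicate 1, OCP3 replicate 3 or OCP4 replicate 3. Signals to osteoclasts included Tnfsf11, the RANK ligand, higher by 0.50 (adjusted p = 0.00547), and Il34, a ligand of the macrophage receptor Csf1r, higher by 1.13. The decoy receptor Tnfrsf11b was not called (0.16).

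Genes of pericytes, the mural cells that wrap capillaries, were higher in OCP3 almost throughout. Of 14, 12 were higher in OCP3 and 0 lower, and the median difference was 1.41. Rgs5, a regulator of G protein signalling used to mark pericytes, read 10.60, 10.65 and 10.50 in OCP2 and 13.20, 13.41, 13.07 and 13.44 in OCP3. It was 6.49-fold higher with no overlap (2.70, SE 0.18, adjusted p = 1.25e-07). Kcnj8 and Abcc9, the pore and the sulphonylurea receptor of the vascular ATP-sensitive potassium channel, differed by 2.11 and 2.09. Abcc9 has a second, dim probe set, which differed by 0.16. Pdgfrb, the receptor through which endothelial PDGF recruits pericytes, read 12.43, 12.41 and 12.32 in OCP2 and 13.69, 13.92, 13.74 and 13.79 in OCP3 (1.40, adjusted p = 1.27e-09). Vtn, Ndufa4l2, Cox4i2 and Higd1b, also used as pericyte markers, were higher by 1.55, 1.58, 2.21 and 1.17. Mcam, a cell adhesion molecule of mural and endothelial cells, differed by 1.02. The NG2 proteoglycan gene Cspg4 was not called, at 12.46, 12.29 and 12.38 in OCP2 and 12.31, 12.47, 12.43 and 12.44 in OCP3, nor was Tbx18 (0.12).

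Contractile genes of smooth muscle were higher by less. Of 18, 11 were higher and 0 lower, with a median of 0.69. Myh11, the smooth muscle myosin heavy chain, read 10.31, 10.17 and 10.09 in OCP2 and 11.44, 11.72, 11.54 and 11.74 in OCP3 (difference 1.42, SE 0.31, adjusted p = 0.00565). Myocd, the coactivator of serum response factor, differed by 1.47, the calcium store protein Casq2 by 1.44 and Synpo2, an actin-binding protein, by 1.40. Tagln, an actin cross-linker, differed by 0.97 and the myosin light chain Myl9 by 0.89.

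Acta2, smooth muscle actin, read 13.34, 13.28 and 13.16 in OCP2 and 14.22, 13.98, 13.94 and 14.32 in OCP3. The groups did not overlap, as was true of 5188 genes in all, and the call was missed (0.86, SE 0.28, adjusted p = 0.0519). Its arrays in OCP1 read 11.34, 12.75 and 11.39, so that OCP1 replicate 2 stood apart and widened the spread that all groups share. Without that array the adjusted p of Acta2 was 0.00247, and from the 7 arrays alone it was 0.000701. Actg2, enteric smooth muscle actin, behaved alike: it missed the call at 0.155 and passed at 0.007 without OCP1 replicate 2 and at 0.00181 from the 7 arrays. Cnn1, calponin, at 0.46, passed from the 7 arrays alone (0.0273). The other members not called, Smtn, Tpm2, Sncg and Pln, were called under no alternative that tested them. Over the fits Tpm2 ran from 0.2 to 0.33, Smtn from 0.02 to 0.08 and Pln from -0.02 to 0.04. Sncg had the opposite sign, from -0.31 to -0.12.

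Receptors and effectors of vascular tone included the largest difference of all. Of 26 such genes, 20 were higher and 2 lower, with a median of 0.98. Like the other lists, it was drawn up with earlier results of these arrays known, so this count is a description. Adra2a, the alpha-2A adrenergic receptor, read 8.50, 8.38 and 8.13 in OCP2 and 11.81, 11.84, 11.54 and 11.81 in OCP3. The mean was 10.7-fold higher (3.42, SE 0.10, adjusted p = 1.08e-10). Fhl5, a LIM domain cofactor, was 10.6-fold higher, from 7.94, 8.02 and 7.99 to 11.29, 11.41, 11.23 and 11.61. Trpc6, a receptor-operated calcium channel, differed by 2.76 and Avpr1a, the vasopressin receptor that constricts vessels, by 2.21.

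Gucy1a3 and Gucy1b3, the subunits of soluble guanylate cyclase, the nitric oxide receptor, differed by 2.59 and 1.90, Prkg1, the cGMP-dependent kinase, by 1.04, and the cyclic nucleotide phosphodiesterases Pde3a and Pde5a by 1.21 and 0.71. Another phosphodiesterase on the list, Pde1a, was not called (0.03, adjusted p = 0.916). Gucy1a3 read 9.93, 9.81 and 9.71 in OCP2 and 12.20, 12.53, 12.42 and 12.47 in OCP3. Of constrictor receptors, the endothelin receptor Ednra differed by 0.93, Adra1d by 0.92 and the angiotensin receptor Agtr1a by 0.66. Npr1, the atrial natriuretic peptide receptor, and Ptger3, a prostaglandin receptor, were lower, with differences of -0.62 and -0.44. Kcnma1 and Ednrb were not called.

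Pathway genes around mural cells and bone were read next. Notch signalling passes between touching cells, and its receptor Notch3 is a mural cell gene. Of 14 Notch genes, 7 were higher in OCP3 and 3 lower (median 0.20). The target Hey2 read 9.46, 9.53 and 9.45 in OCP2 and 11.19, 11.20, 11.21 and 11.30 in OCP3, a tight 3.35-fold separation (1.74, SE 0.04, adjusted p = 3.55e-11). The targets Nrarp and Heyl differed by 1.63 and 1.46, Notch3 by 1.42 and the ligand Jag1 by 0.91. Lower were Dll4 (-1.09), Jag2 (-0.57) and Notch4 (-0.56), of which Dll4 and Notch4 are known from endothelium. Angpt2, a modulator of the endothelial receptor Tie2, read 10.12, 9.86 and 9.88 in OCP2 and 11.61, 11.71, 11.77 and 11.58 in OCP3 (1.71, adjusted p = 5.65e-09).

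Hedgehog genes divided by role. Targets of the pathway were higher: Hhip, which binds the ligand, by 1.44, Ptch1, its receptor, by 0.67 and Gli1, a transcription factor, by 0.44. The coreceptors Cdon, Boc and Gas1 were lower, with differences of -0.71, -0.54 and -0.54. In all, 4 of 12 were higher and 6 lower, and without OCP2 replicate 3 the lower count was 3. Hhip read 10.44, 10.14 and 10.41 in OCP2 and 11.92, 11.59, 11.99 and 11.57 in OCP3.

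Among integrins and basement membrane genes, 9 of 27 were higher and 3 lower. The lower count is close to the share of all genes called lower, 9.48%. Itga1, a subunit of the collagen receptor that binds collagen IV, read 10.87, 10.92 and 10.87 in OCP2 and 12.76, 12.83, 12.69 and 12.86 in OCP3 (1.89, SE 0.06, adjusted p = 1.66e-10). Itga7, a laminin receptor subunit, differed by 1.40, Itga6 by 0.90, and Col4a1 and Col4a2 by 0.47 and 0.43. Itga2, another collagen receptor subunit, was lower (-1.03). Wnt genes showed no single direction, with 7 of 26 higher and 8 lower, and without OCP2 replicate 1 the lower count was 5. The largest were Fzd9 and the antagonist Frzb on the low side (-1.29 and -0.91) and the agonist Rspo3 on the high side (0.84). FGF genes were called lower more often than higher, 10 of 17 against 1. Among the lower were the receptor Fgfr4 (-0.98) and the pathway targets Etv5 and Etv4 (-0.66 and -0.42). Fgfr2, a receptor of osteoprogenitors, was the higher member (0.80). The higher FGF count was 2 without OCP1 replicate 1, OCP3 replicate 1, OCP3 replicate 3 or OCP4 replicate 4. The lower count was 6 without OCP2 replicate 1 and 5 without OCP2 replicate 3. It was also 6 from the 7 arrays alone and 6 with each array centred on its median. Of 32 BMP and TGF-beta genes, 9 were lower, led by Bmp4 (-0.52), and Tgfb1 was higher (0.52), joined by 1 more without OCP3 replicate 2, which made 2. Over all alternatives the lower count of this list ran from 6 to 9 and the higher count from 1 to 3. Hypoxia and glycolysis genes had 9 of 18 lower and 0 higher, led by the carbonic anhydrase Car12 (-1.44). Their lower count ran from 6 to 11 over the alternatives.

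Among the 20 largest higher differences, several genes belonged to none of these lists. Il6, an inflammatory cytokine, read 8.34, 8.79 and 8.77 in OCP2 and 10.84, 10.85, 10.52 and 11.61 in OCP3, 5.0-fold higher (adjusted p = 3.42e-06). Omd, a keratan sulphate proteoglycan of bone, differed by 2.29 and Ostn, the secreted peptide osteocrin, by 2.2. Ostn read 6.65, 6.72 and 6.69 in OCP2 and 9.08, 8.96, 8.59 and 8.91 in OCP3. Cpa1, a digestive carboxypeptidase best known from pancreas, differed by 2.83, and Cyp4b1, a cytochrome P450, by 2.64. Mup7 read 6.78, 6.37 and 6.51 in OCP2 and 9.55, 7.81, 9.43 and 8.28 in OCP3. It belongs to the major urinary protein family, whose near-identical copies can share probes, so that its identity is uncertain. On the low side, Serpina3n, a protease inhibitor, differed by -2.18, Smoc1, a secreted calcium-binding protein, by -1.85 and Coch, cochlin, by -1.62. Prnd, the prion-like protein doppel, differed by -2.05 on its bright probe set and by 0.02 on a dimmer set.

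Markers of some other cell types also differed between these sorts. Of 16 endothelial genes, 8 were lower in OCP3 and 1 higher (median -0.50). Pecam1, the endothelial adhesion molecule CD31, read 11.11, 10.73 and 10.44 in OCP2 and 9.57, 10.02, 9.65 and 9.53 in OCP3 (-1.07, adjusted p = 0.000278). The mean level of this list ran from 10.19 to 10.87 over the OCP2 arrays and from 9.94 to 10.32 over the OCP3 arrays, which overlap. Esam, shared by endothelium and mural cells, was the higher gene (0.92), and without OCP2 replicate 1 the higher count was 2. Of 18 skeletal muscle genes, 13 were lower and 1 higher (median -0.64), with list means of 9.92 to 10.18 in OCP2 and 9.21 to 9.71 in OCP3. The higher gene, Des, is also a member of the contractile list. Without OCP2 replicate 2, 9 skeletal muscle genes were called lower. Pax7, the satellite cell factor, read 10.05, 10.43 and 10.20 in OCP2 and 9.07, 9.53, 9.05 and 9.62 in OCP3.

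Of 8 adipocyte genes, 6 were lower and 0 higher, and OCP2 replicate 2 had the highest list mean, 10.81 against 10.18 on both other OCP2 arrays. Without it, 2 were called lower. Schwann and nerve genes had 1 higher, Fabp7 (0.85), and 1 lower, Ngfr (-0.53), of 12. Those counts were close to the shares called over all genes, 6.63% higher and 9.48% lower. The lower Schwann count was 2 on leaving out replicate 1 or 3 of OCP1 or of OCP4, or else replicate 2 or 3 of OCP2 or of OCP3. By limma, 0 of 18 haematopoietic and 0 of 10 keratinocyte genes were called, with 2 and 1 at an unadjusted p under 0.05. Without OCP2 replicate 3, 2 haematopoietic genes and 1 keratinocyte gene were called lower. Their differences ran from -0.33 to 0.16 and from -0.94 to 0.24. These array intensities have no 0, so absence of a marker cannot be read from them. Between the same 2 sorts, the endothelial, skeletal muscle, adipocyte and cartilage lists had negative medians and the pericyte list a positive one. The pericyte list means ran from 10.84 to 10.89 in OCP2 and from 12.07 to 12.30 in OCP3. The part of endothelial, muscle, adipocyte and other such cells in the results above was not tested.

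**Figure D4:**
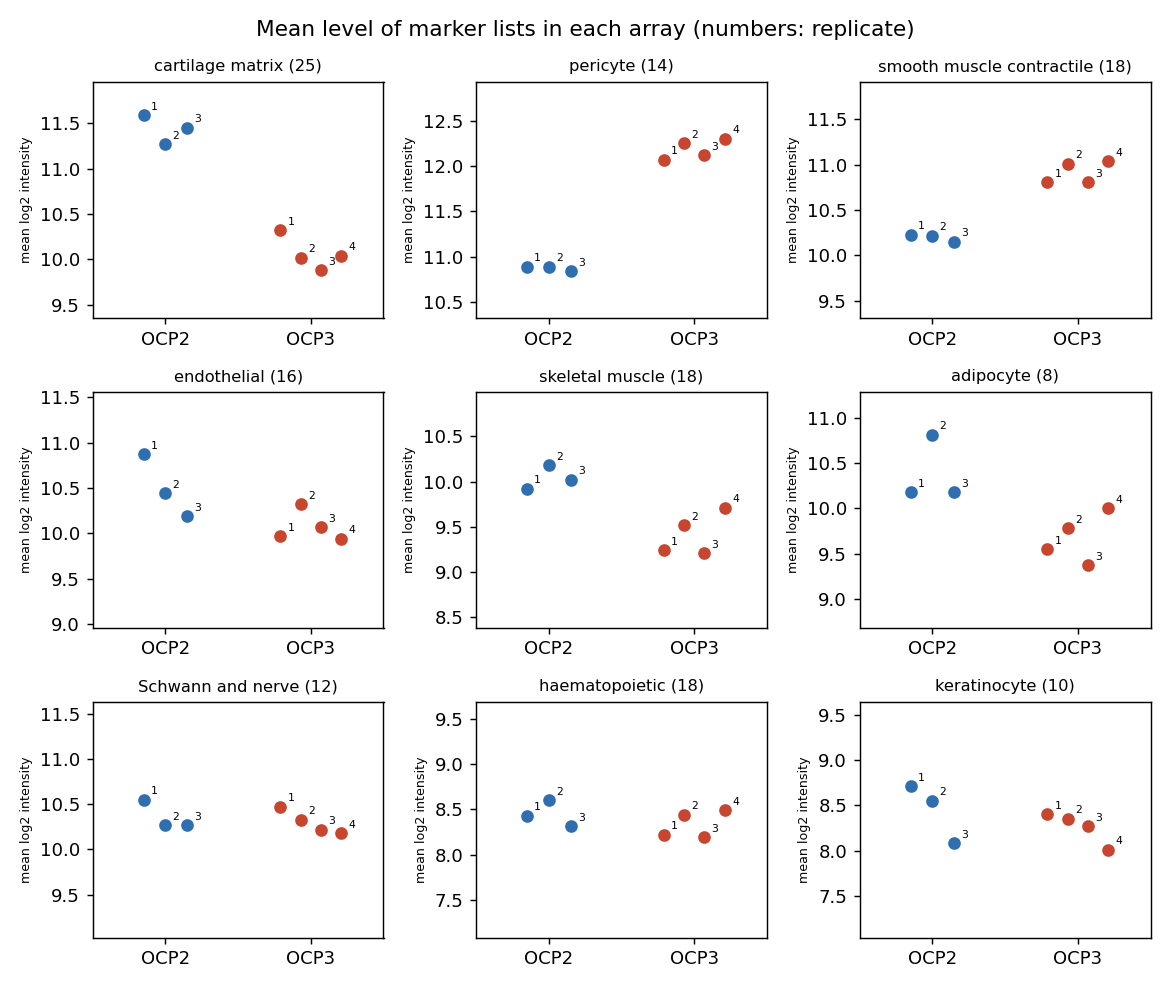
Mean log2 intensity of the genes of 9 lists in each OCP2 and OCP3 array (dots, with the replicate number), each panel spanning the same range of log2 units. The cartilage, pericyte and contractile means separate the groups, and the skeletal muscle and adipocyte means do so with a narrower gap. The endothelial, Schwann, haematopoietic and keratinocyte means overlap.

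The same Thy1 step was then read in CD73-positive cells, as OCP4 minus OCP1, which shares no array with OCP3 minus OCP2 but shares the fit's estimate of the spread. In that comparison 5706 genes differed, 26.3% of those tested. The difference of the differences was called for 3915 genes, or 18.0%. Of the genes called in both, 1448 had the same direction and 442 the opposite. The counts that unrelated calls would give were not worked out, so neither number is read further. The cartilage losses were common to both steps: all 25 cartilage matrix genes were lower in OCP4 than in OCP1, with a median of -2.0, and Matn1 differed by -2.80 there against -2.84 here (adjusted p of the difference 0.967). For 10 of the 25 the difference of the differences was called, each time with the more positive value in CD73-negative cells. Among these, Cilp2 was higher in OCP3 (0.53) and lower in OCP4 (-0.27). Acan was one of them, at -2.22 in CD73-positive and -0.89 in CD73-negative cells (adjusted p = 0.000282).

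Of the 20 genes with the largest higher differences, 13 were also called higher in OCP4 than in OCP1 and 3 were called lower. Of the 20 with the largest lower differences, 17 were also called lower and 1 was called higher. The difference of the differences was called for 19 of the higher and 6 of the lower genes. All 40 were chosen for their size in CD73-negative cells, which favours a larger value there, so nothing is read from these last counts. Mmp13 went in opposite directions, 2.90 here and -1.29 in CD73-positive cells, a difference of 4.19 (adjusted p = 3.53e-08). In OCP1 it already stood at 11.53, 11.25 and 11.33, close to OCP3, and in OCP4 it read 9.84, 10.13, 10.54 and 9.80. Adra2a differed by 3.42 and 0.65, and Sp7 by 1.67 and -0.45. The pericyte median was 1.41 against 0.11 in CD73-positive cells, and 12 of 14 pericyte genes had a called difference of the differences. For the contractile list these values were 0.69, -0.14 and 11 of 18. OCP1 replicate 2, which stood apart for Acta2, had a contractile list mean above every other OCP1 array and every OCP4 array. The other OCP1 arrays had means of 9.53 and 9.41, within the OCP4 range of 9.33 to 9.65. The -0.14 was not tested without OCP1 replicate 2, so no fall of contractile genes in OCP4 is read from it. Hey2 differed by 1.74 in CD73-negative and by 1.83 in CD73-positive cells (adjusted p of the difference 0.433), and Runx3 by 0.80 and 0.81. Endothelial genes ran against each other, with medians of -0.50 and 0.39.

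**Figure D5:**
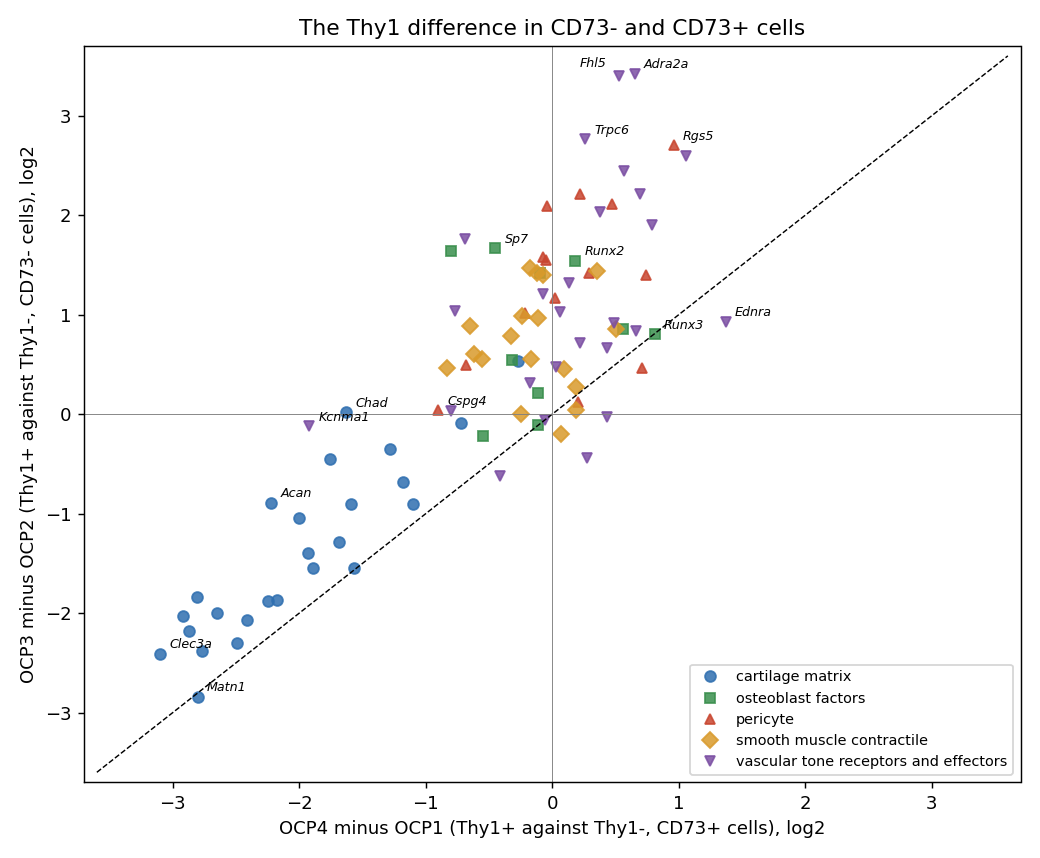
OCP3 minus OCP2 (vertical, log2) against OCP4 minus OCP1 (horizontal, log2) for the genes of 5 lists (symbols), with the line of equal differences dashed. Most cartilage genes lie near or above the line at the lower left, and most pericyte and vascular tone genes lie above it close to the vertical axis, with Ednra (0.93 and 1.37) below the line.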

How the data were processed

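Affymetrix Mouse Gene 1.0 ST arrays carried RNA of 14 sorted samples, grouped by array title. The deposited values are intensities on a linear scale, which the authors normalised with RMA, and limma is also named, per the submitters' processing notes; their versions are not given in these sources. Symbols came from the deposited matrix, whose rows matched the value table. Here log2 of the deposited intensity was taken, and the brightest probe set over the 14 arrays stood for each of 21734 symbols (1920 had several). A limma fit (3.58.1, R 4.3.3) over all 14 arrays gave differences, SEs and moderated p-values from the deposited values, adjusted by Benjamini-Hochberg over all genes, with a threshold of 0.05. Array median intensities ran from 328.1 to 346.8, and the number of arrays limits the precision. On simulated data for this comparison, over 21734 genes, the fit recovered 99.5% of 200 genes changed by 1 log2 unit, and 4.3% of its calls were false. Apart from those 200, each simulated gene had the same mean in every group, with independent normal noise. Most called differences here were smaller than 1 log2 unit and real arrays may deviate together, so these rates need not hold for the calls above. Named genes are the sort genes, Mmp13, Adra2a, Matn1, list members and the 20 largest called, non-overlapping differences in each direction. Members and lists were chosen with earlier results of these data known. Alternatives were 22, of which 14 left out 1 array each. Some named genes are not reported here, though counts include them.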

Additional observations from a re-analysis of the deposited data

Results flagged for a closer look

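Among 41 genes checked in the 4 OCP3 arrays, 7 had 1 array set apart from the other three by Dixon's criterion, which chance alone meets in about 1 in 20 groups. These arrays were replicate 2 for Cd9 (10.85), replicate 3 for Adra2a (11.54), Foxa3 (6.95) and Coch (8.86), and replicate 1 for Cox4i2 (11.67), Cytl1 (11.14) and Epyc (9.03).

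For 25 of these genes, the Thy1 difference in CD73-negative cells differed from that in CD73-positive cells by limma's interaction contrast. Nearly all were picked as the largest differences in CD73-negative cells, which favours a larger value there, so the contrast is a description for them. The largest value was that of Mmp13 (4.19 on the log2 scale), which was higher in OCP3 than in OCP2 and lower in OCP4 than in OCP1. Genes of mural cells and vascular tone were more positive in CD73-negative cells, with Adra2a at 2.77, Fhl5 at 2.87, Trpc6 at 2.51, Cox4i2 at 2.00, Olfr558 at 1.86, Rgs5 at 1.74, Gucy1a3 at 1.52 and Avpr1a at 1.52. Secreted and matrix genes with the same sign were Ostn at 3.05, Omd at 2.90, Mmp9 at 2.43, Il6 at 1.15, Comp at 0.96 and Cpa1 at 2.09. The rest with this sign were Tmc5 at 2.09, Ifi203 at 1.99, Cyp4b1 at 1.71, Cd9 at 0.82 and Scin at 0.80. More negative in CD73-negative cells were Prnd at -2.58, Smoc1 at -2.09, Fam70a at -1.95, Coch at -1.01 and Thy1 at -0.89.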

How the results depend on the processing

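The 3502 calls, the 259 calls of at least 2-fold and the 3915 called differences of differences stayed within 1.5 times of these counts under every alternative that could be run for each. Fitting only the 7 arrays of OCP2 and OCP3 gave 2486 calls and 258 of at least 2-fold. Centring every array on its median left 3229 calls, 1695 higher and 1534 lower. Without 1 array, the calls ran from 2622 to 3610, the higher calls from 1184 to 1442, the lower calls from 1423 to 2168, the calls of at least 2-fold from 253 to 272 and the called differences of differences from 3012 to 4218. Same-numbered OCP2 and OCP3 arrays deviated together at r of -0.419 to 0.115 over 3 pairs, and other-numbered ones at -0.452 to 0.434 over 9. So few pairs cannot show whether the replicate numbers pair the samples. With the replicate number as a block there were 2901 calls, 253 of at least 2-fold and 3690 called differences of differences. Of 575 named genes, 307 were called, 232 of them in every alternative that tested them, and 75 lost the call in at least 1. No called gene among them changed direction, and all 40 of the largest differences kept their call in every alternative that tested them. Of the 268 not called, 52 were called in at least 1 alternative.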
